A study of Arabidopsis thaliana with 12 samples.

Results

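The genes described here encode non-specific lipid transfer proteins of Arabidopsis thaliana: LTP1 to LTP8, LTP11 and LTP12, 10 genes chosen by their gene IDs. The choice was made after LTP4 had been seen among the largest rises in the trb123 mutant, so the levels in trb123 are given below as a description and carry no p-value. Of the 10 genes, 8 were listed for every genotype, among 20114 genes listed for every genotype in all. LTP11 (AT4G33355) and LTP12 (AT3G51590) were listed for none, and no value is given for them. The 8 listed genes also passed the filter on low values, which kept 18700 genes with at least 1 FPKM (fragments counted for a gene, divided by its length and by the fragments of the library) in at least 3 libraries.

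Whole seedlings with no further treatment were taken at an age of 7 days for RNA sequencing, in a study of the role of TRB4 and TRB5, members of a family of proteins that bind telomere repeats. The 12 libraries form 4 groups of 3: WT (accession Col-0), the independently made lines trb45 line 1 and trb45 line 2, and trb123, a triple mutant, all grown on plates with 1% sucrose. Every group had the same regime: seeds stayed 2 days cold (4 °C) and dark, and plants then had days of 16 h light and 8 h dark at 23 °C. The labels give neither the alleles of any mutant nor the number of seedlings in a library, and they do not say whether replicates were grown apart, so p-values measure only the spread between these libraries.

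Plant lipid transfer proteins are small, basic, secreted proteins whose disulfide bonds hold open a hydrophobic cavity, in which they carry fatty acids, acyl-CoA or phospholipids. Many are made in the epidermis and reach the cell wall, where they are thought to take part in building the cuticle, the layer of cutin and wax on aerial organs. The family is also counted among the pathogenesis-related proteins, and LTP3 and LTP4 are known as genes induced by abscisic acid and drought. The telobox, a short piece of the plant telomere repeat, is the DNA letters to which TRB proteins are known to bind.

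LTP1 (AT2G38540, chr2:16130290-16131240, plus strand) and LTP2 (AT2G38530, chr2:16128176-16129399, plus strand) are neighbours on chromosome 2, head to tail. LTP3 (AT5G59320, chr5:23928954-23929816, plus strand) and LTP4 (AT5G59310, chr5:23924990-23925957, minus strand) are neighbours on chromosome 5 with their starts facing each other. Positions are those of the TAIR10.1 assembly and its RefSeq annotation. The coding sequences of LTP3 and LTP4 were 84.5% identical and those of LTP1 and LTP2 82.4%. The longest run shared by any of the 45 pairs of transcripts was 44 bases, between LTP3 and LTP4, and no pair shared a stretch of 100 bases. How the authors' counting treated a read that fits both genes of a pair is not given in the sources used here, so part of the split of reads within each pair is uncertain.

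Both LTP3 and LTP4 held a telobox (AAACCCTA, searched on both strands) between 250 bases before and 50 bases after the gene start. They were 2 of the 10 genes, and 6.22% of 27444 promoters of that length held one. The surrounding letters were the same in both genes. The 30 bases around each match are shown because the 2 genes had the largest differences between trb123 and WT; capitals mark the telobox, and both run 5′ to 3′ on the strand of the gene.
LTP3, chr5:23928888-23928917, plus strand: caactactaacAAACCCTActtagtcatca
LTP4, chr5:23925907-23925936, minus strand: caactactaacAAACCCTActtagtcatca
The whole identical stretch was 32 bases. Its telobox began 55 bases before the start of LTP3, upstream of the transcript, and at base 33 of the LTP4 transcript. The short telobox AACCCTA lies within these 2 matches and occurred nowhere else in that window of the 10 genes, against 8.83% of promoters. In the 1000 bases before the start, the telobox was present in LTP3 and LTP11 and in 12.4% of promoters.

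The 250 bases before the starts of both pairs are shown so that the sequences can be set beside the levels that follow. Capitals mark the telobox in LTP3 and the core of the abscisic acid response element (ACGTG on either strand) in LTP2.
LTP1, chr2:16130040-16130289, plus strand: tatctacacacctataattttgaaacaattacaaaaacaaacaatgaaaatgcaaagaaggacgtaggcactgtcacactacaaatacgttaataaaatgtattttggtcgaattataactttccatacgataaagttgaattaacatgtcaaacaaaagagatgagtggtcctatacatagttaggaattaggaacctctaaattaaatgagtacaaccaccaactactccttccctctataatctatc
LTP2, chr2:16127926-16128175, plus strand: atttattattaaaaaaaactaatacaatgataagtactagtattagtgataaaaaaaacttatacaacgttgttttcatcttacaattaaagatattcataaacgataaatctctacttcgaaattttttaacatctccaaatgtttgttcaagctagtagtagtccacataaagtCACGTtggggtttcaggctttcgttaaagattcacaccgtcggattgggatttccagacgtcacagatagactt
LTP3, chr5:23928704-23928953, plus strand: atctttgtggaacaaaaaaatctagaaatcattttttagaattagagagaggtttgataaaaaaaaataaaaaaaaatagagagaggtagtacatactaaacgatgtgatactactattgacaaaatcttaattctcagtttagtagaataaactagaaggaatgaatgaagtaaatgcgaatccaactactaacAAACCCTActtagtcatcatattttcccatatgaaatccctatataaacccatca
LTP4, chr5:23925958-23926207, minus strand: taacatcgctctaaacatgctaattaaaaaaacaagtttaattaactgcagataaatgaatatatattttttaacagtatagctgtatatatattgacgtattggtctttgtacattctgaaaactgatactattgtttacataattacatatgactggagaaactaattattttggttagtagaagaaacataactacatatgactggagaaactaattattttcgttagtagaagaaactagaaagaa
The ACGTG core occurred in LTP2 and LTP8 within the window from 250 bases before to 50 after the start (26.7% of promoters). In the 1000 bases before the start it occurred in 8 of the 10 genes, with 5 matches in LTP4, and in 54.4% of promoters. The L1 box, named for the outer cell layer in whose genes it was described (TAAATGCA or TAAATGTA, both strands), occurred in the shorter window in LTP4, at base 10 of the transcript, and in 5.10% of promoters. The repeat GAGAGA occurred in LTP3, with 2 matches, and in 29.2% of promoters, and the evening element AAAATATCT in none of the 10 and 2.82%. A match is a description of the letters only.

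The 12 libraries were alike in size. Depth, inferred from the steps between low FPKM values, ran from 22605500 to 24343000 fragments per library, and Pearson r between replicates from 0.973 to 0.996. In trb123, TRB1, TRB2 and TRB3 lay between 0.65 and 3.12 FPKM against 6.34 to 13.3 in WT. In the trb45 lines TRB4 lay between 2.96 and 6.10 FPKM against 8.16 to 11.04 in WT, and TRB5 between 2.85 and 3.51 against 11.04 to 12.5. The libraries also fell into 2 sets: replicate 3 of line 1 stood with line 2 and trb123, and replicates 1 and 2 of line 1 stood with WT. This was seen over 226 genes that were lower by at least 1 on the log2 scale in replicate 3 than in replicates 1 and 2 of line 1, and none of the lipid transfer protein genes is among them. The split within line 1 follows from that choice of genes, and only the places of WT, line 2 and trb123 were left free by it. Since all WT libraries lie in one set and all of line 2 and trb123 in the other, line 2 or trb123 and the set cannot be told apart except through line 1.

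The members spanned more than 2 orders of magnitude in WT, where FPKM, a level per kilobase, allows genes to be compared as far as the authors' gene lengths hold. LTP1 was the highest at a mean of 863 ± 83.3 FPKM (SD, n = 3, as in all groups), followed by LTP5, LTP6, LTP2 and LTP7, whose libraries did not overlap with those of their neighbours in this order. The reference gives LTP7 a transcript of 2801 bases for a coding length of 372, and the other members at most 1113 bases (LTP2). The place of LTP7 in this order therefore depends on the length used. LTP8 and LTP3 overlapped at the next level, and LTP4 was the lowest at 2.10 ± 1.78 FPKM. In both trb45 lines LTP2 and LTP7 ranked above LTP6, but LTP7 and LTP6 overlapped in line 2. In trb123 the order was LTP1, then LTP5 and LTP2, which overlapped, then LTP6, LTP4, LTP3, LTP7 and LTP8, so that LTP4 moved from the last to the fifth place.

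**Figure D1:**
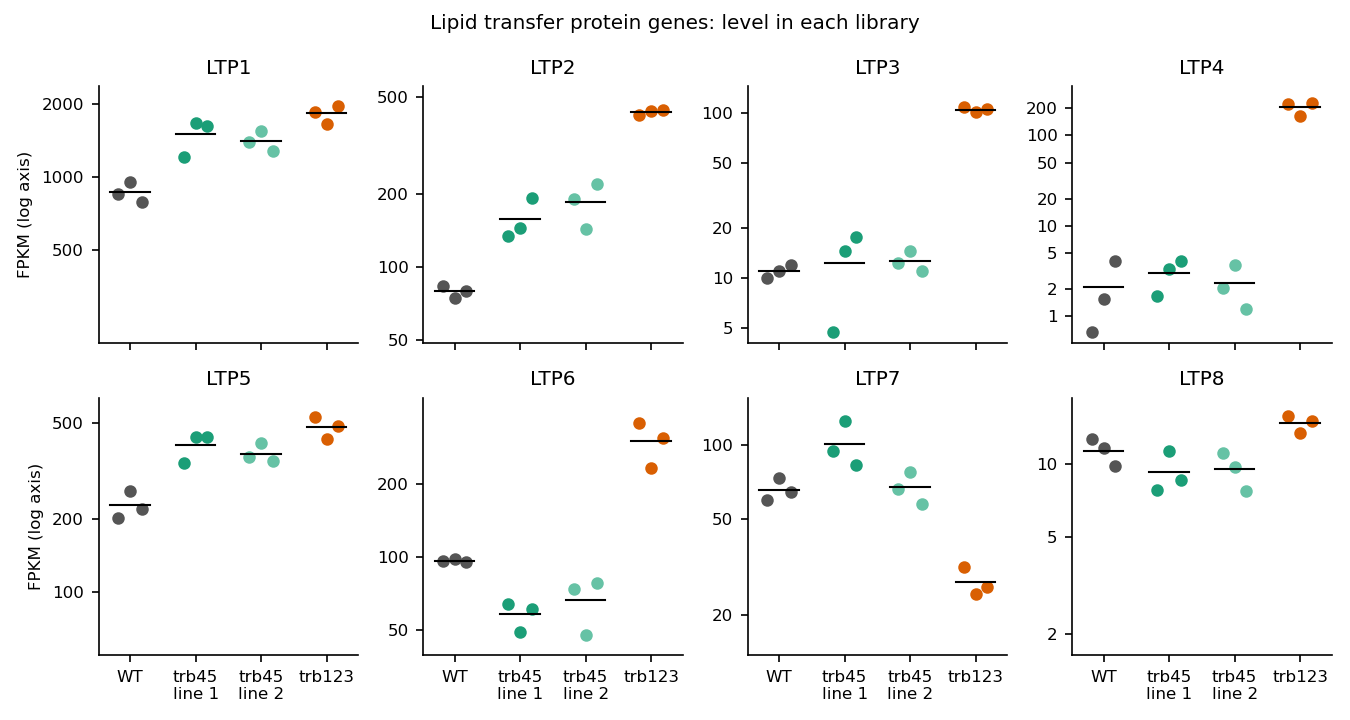
FPKM of each listed lipid transfer protein gene (log axis, a different range in each panel) in the 3 libraries of WT, trb45 line 1, trb45 line 2 and trb123. Points are libraries and lines are group means. The trb123 points of LTP3 and LTP4 lie far above all other points, at 101 to 109 and 165 to 229 FPKM, and LTP7 is the panel in which trb123 lies lowest.

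The genes LTP1, LTP2 and LTP5, were higher than WT in both trb45 lines, LTP6 was lower in both, and LTP7 was higher in line 1. LTP3, LTP4 and LTP8 did not pass the test in either line. Called means an adjusted p under 0.05 from limma on log2(FPKM + 1), with Benjamini-Hochberg adjustment over all 18700 genes. Of the 8 genes, 5 were called in line 1, where 18.2% of all genes were called; 4 were higher (7.77% of all genes) and 1 lower (10.4%). In line 2, 4 were called against 30.5% of all genes, 3 higher (14.9%) and 1 lower (15.6%). With the lines averaged, 4 were called against 28.7%, 3 higher (12.8%) and 1 lower (15.9%). These 3 comparisons share the WT libraries. The median difference of the 8 genes was 0.54 in line 1, 0.18 in line 2 and 0.32 in the average, beside -0.05, 0.02 and -0.02 over all genes. In line 1 the libraries of 4 genes lay wholly above WT and of 1 wholly below, beside 13.4% and 20.4% of all genes; in line 2 these were 3 and 1, beside 25.4% and 24.4%. Of all calls in line 1, 42.8% were higher, a share that was 55.8% with median-ratio scaling.

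LTP1, a cell wall protein that binds calmodulin and is made in the epidermis, had 847, 953 and 788 FPKM in WT replicates 1 to 3. Line 1 had 1205, 1659.9 and 1619 FPKM, line 2 had 1396, 1542 and 1279, and trb123 had 1858, 1652 and 1967. Every mutant library lay above every WT library. The difference from WT on the log2 scale was 0.78 ± 0.14 (SE) in line 1 (adjusted p = 0.00256) and 0.70 ± 0.14 in line 2 (adjusted p = 0.00262), or 1.73 and 1.63 times the WT mean. In trb123 the difference was 1.08 ± 0.14, or 2.12 times WT.

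LTP5, whose protein was studied in pollen tube growth, moved much as LTP1 did. WT had 203, 262 and 220.45 FPKM, line 1 had 342, 436 and 437, line 2 had 361, 413 and 347, and trb123 had 527, 429 and 485. Here too the WT libraries were below all others. The log2 difference was 0.82 ± 0.13 in line 1 (adjusted p = 0.00157), 0.71 ± 0.13 in line 2 (adjusted p = 0.00213) and 1.07 ± 0.13 in trb123.

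LTP2, a protein with a role in how the cuticle adheres to the cell wall, rose most in the trb45 lines of the 8 genes. WT had 83.5, 74.8 and 80.0 FPKM, line 1 had 135, 145 and 193, line 2 had 191, 143 and 220.03, and trb123 had 424, 439 and 443. The lines lay between WT and trb123 with no overlap on either side. The log2 difference was 0.96 ± 0.16 in line 1 (adjusted p = 0.00165) and 1.18 ± 0.16 in line 2 (adjusted p = 0.000356), about 1.98 and 2.32 times WT. In trb123 it was 2.44 ± 0.16, or 5.48 times WT.

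Within one set of libraries, replicates 1 and 2 of line 1 differed from WT by 0.72 for LTP1 (adjusted p = 0.0191), 0.81 for LTP2 (adjusted p = 0.00167), 0.76 for LTP5 (adjusted p = 0.0107), -0.78 for LTP6 (adjusted p = 0.00485) and 0.73 for LTP7 (adjusted p = 0.0122). Line 2 shares no set with WT and has no such value. With a term for the 2 sets in the limma fit, none of the 8 genes was called in line 2, 3 had an unadjusted p under 0.05, and 127 of all genes were called. The differences in line 2 were then 0.51 for LTP1 (adjusted p = 0.361), 0.72 for LTP2 (adjusted p = 0.186) and 0.53 for LTP5 (adjusted p = 0.324), and the fit rests on replicate 3 of line 1. Without that term, adjusted p over the other settings and left-out libraries stayed under 0.05 for these 3 genes in both lines.

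LTP6 went in opposite directions in the 2 kinds of mutant. Its WT libraries were close together at 96.8, 98.4 and 95.7 FPKM. Line 1 had 64.2, 49.2 and 61.1, line 2 had 74.15, 47.9 and 78.2, and trb123 had 358, 234 and 309. All 6 trb45 libraries lay below WT and all 3 of trb123 above it. The log2 difference was -0.74 ± 0.19 in line 1 (adjusted p = 0.017), -0.56 ± 0.19 in line 2 (adjusted p = 0.0352) and 1.60 ± 0.19 in trb123. The calls in the single lines were weak. Without WT replicate 1, WT replicate 3 or line 1 replicate 2 the adjusted p in line 1 was 0.0539, 0.0546 or 0.0571, over a range of 0.00436 to 0.0571 in all alternatives. Without WT replicate 1, 2 or 3 or line 2 replicate 2 it was 0.0831, 0.0846, 0.0798 or 0.138 in line 2, over a range of 0.00947 to 0.4, the last with the term for the 2 sets.

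LTP7, which the reference annotates as LTP, was the gene that was lower in trb123. WT had 59.5, 73.5 and 64.4 FPKM, line 1 had 94.9, 126 and 83.3, line 2 had 66.5, 78.0 and 57.6, and trb123 had 31.5, 24.45 and 26.2. Line 1 lay wholly above WT, line 2 overlapped WT, and trb123 lay wholly below. The log2 difference was 0.60 ± 0.16 in line 1 (adjusted p = 0.0215), 0.03 ± 0.16 in line 2 (adjusted p = 0.914) and -1.24 ± 0.16 in trb123. The call in line 1 was lost with only the 2 groups in the fit (adjusted p = 0.0525) and without WT replicate 1 (0.0856), WT replicate 3 (0.0722) or line 1 replicate 2 (0.0676); the alternatives ran from 0.00966 to 0.0856. With the lines averaged it was 0.31 ± 0.14 (adjusted p = 0.103), and 0.38 without line 1 replicate 3 (adjusted p = 0.042, in a range of 0.042 to 0.311).

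Between the 2 lines none of the 8 genes was called by limma, 1 had an unadjusted p under 0.05, and 4.63% of all genes were called (2.07% higher in line 1, 2.55% lower). Higher genes were 44.9% of those calls, and 67.8% with median-ratio scaling. The gene with the low unadjusted p was LTP7, at 0.57 ± 0.16 higher in line 1 (95% interval 0.23 to 0.92, adjusted p = 0.0545). It was called without line 1 replicate 3 (adjusted p = 0.0073) or without line 2 replicate 2 (0.0458), in a range of 0.0073 to 0.803 over the alternatives. For LTP1, LTP2, LTP5 and LTP6 the differences between the lines were 0.08, -0.22, 0.11 and -0.17, with 95% intervals of -0.21 to 0.37, -0.56 to 0.11, -0.17 to 0.39 and -0.57 to 0.23.

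LTP8 was among the low genes. WT had 12.6, 11.6 and 9.81 FPKM, line 1 had 7.85, 11.3 and 8.61, line 2 had 11.1, 9.73 and 7.73, and trb123 had 15.75, 13.4 and 15.1. The trb45 libraries overlapped WT, and those of trb123 lay above it. The log2 difference was -0.28 ± 0.15 in line 1 (adjusted p = 0.204), -0.24 ± 0.15 in line 2 (adjusted p = 0.241) and 0.36 ± 0.15 in trb123.

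LTP3 and LTP4, which did not pass the test in either trb45 line, had the largest differences in trb123. LTP3 had 10.01, 11.1 and 12.1 FPKM in WT, 4.70, 14.5 and 17.65 in line 1, 12.4, 14.65 and 11.03 in line 2, and 109, 101 and 106 in trb123. The trb45 libraries lay on both sides of WT and none came near trb123. With the lines averaged the log2 difference from WT was 0.08 ± 0.27 (95% interval -0.51 to 0.66, adjusted p = 0.859). Replicate 1 of line 1 was the lowest of all 12 libraries; without it the difference in line 1 was 0.50 (adjusted p = 0.0174), against -0.03 ± 0.31 (adjusted p = 0.963) with it, and alternatives gave adjusted p from 0.0174 to 0.981. For the averaged lines it was then 0.34 (adjusted p = 0.0248, in a range of 0.0248 to 0.986). In trb123 the difference was 3.14 ± 0.31, or 9.51 times WT, and it was 2.15 with the term for the 2 sets of libraries.

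LTP4 had 0.67, 1.55 and 4.09 FPKM in WT, about 13, 29 and 80 fragments. Line 1 had 1.69, 3.32 and 4.09 FPKM, line 2 had 2.03, 3.73 and 1.20, and trb123 had 224, 165 and 229. The WT and trb45 libraries overlapped over the whole of this low range, and all trb123 libraries stood apart. By level, LTP4 ranked between place 12704 and place 18512 among the listed genes of a WT library, and between place 355 and place 523 in trb123. Both lines averaged, the log2 difference from WT was 0.33 ± 0.32 (95% interval -0.36 to 1.02, adjusted p = 0.46). In trb123 it was 6.20 ± 0.37 on the log2(FPKM + 1) scale, and the ratio of the means was 97.8. That ratio rests on WT replicate 3, the highest of WT: without it the ratio was 185, and it ran from 73.0 to 185 with 1 library of WT or trb123 left out.

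**Figure D2:**
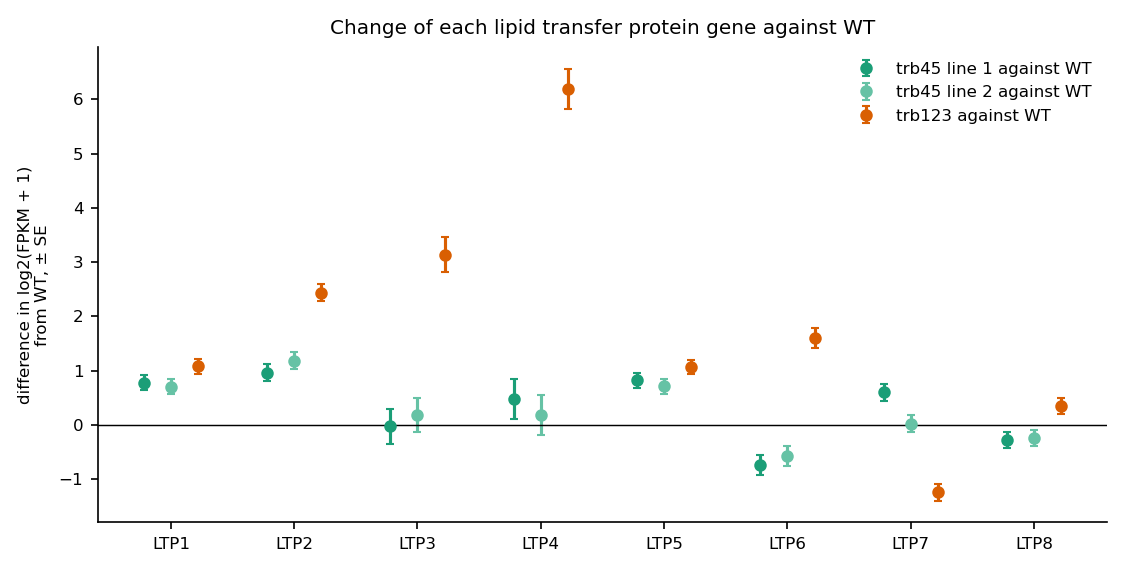
Difference in log2(FPKM + 1) from WT for each listed gene in trb45 line 1, trb45 line 2 and trb123. Points are estimates from the fit over all 12 libraries and bars are 1 SE. LTP6 and LTP7 are the genes whose trb45 and trb123 points lie on opposite sides of 0 with an adjusted p under 0.05 in at least 1 line.

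Read over the 8 genes, trb123 had 7 past the threshold, 6 higher and 1 lower, where 59.4% of all genes were past it (33.9% higher, 25.5% lower). The libraries of 7 genes lay wholly above WT and of 1 gene wholly below, beside 39.6% and 30.6% of all genes. This contrast was in view when the genes were chosen, so nothing is read from these counts. The median difference of the 8 genes was 1.34 and that of all genes 0.07. Against trb123, the averaged trb45 lines were lower for 7 of the 8 genes and higher for LTP7, where 59.6% of all genes were past the threshold (23.4% higher, 36.2% lower). Higher genes were 39.2% of those calls and 50% with median-ratio scaling. The differences ran from -5.87 ± 0.32 for LTP4 and -3.07 ± 0.27 for LTP3 to -0.30 ± 0.11 for LTP5, with 1.55 ± 0.14 for LTP7. For LTP1 the difference was -0.34 ± 0.12. The count of 8 was 6 with median-ratio scaling, where LTP1 and LTP5 were no longer past the threshold, and 7 with quantile scaling. Over 19 alternatives LTP1 was past it in 15 and LTP5 in 11. This comparison shares the trb123 libraries that were in view at the choice, so nothing is read from its counts either.

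Summed over the 8 genes, WT had 1358 ± 112 FPKM, line 1 had 2241 ± 335, line 2 had 2123 ± 125 and trb123 had 3395 ± 292. These were 0.215%, 0.346%, 0.329% and 0.527% of the FPKM sum of a library. LTP1 alone made up 63.5%, 66.6%, 66.1% and 53.8% of the summed level in the 4 groups.

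**Figure D3:**
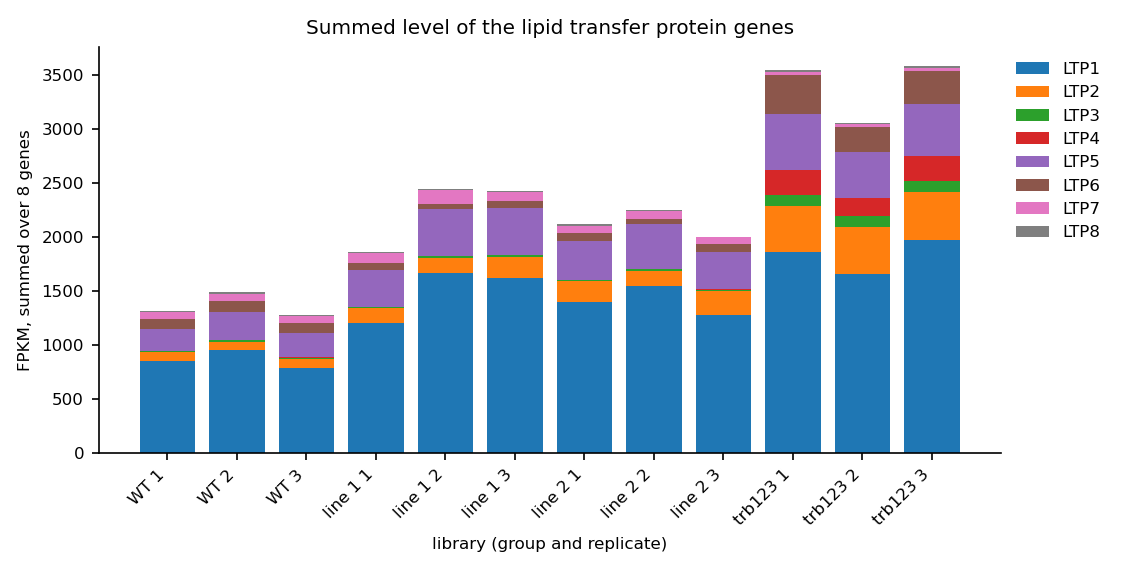
FPKM summed over the 8 listed genes in each of the 12 libraries, split by gene. The WT bars lie between 1275 and 1486 FPKM and the trb123 bars between 3058 and 3580, with LTP1 the largest block in every bar and LTP4 visible only in trb123.

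The balance within both neighbouring pairs is given as a description. The rise of LTP4 in trb123 was in view at the choice, so its larger share there is no separate result. The split of reads within each pair is also uncertain. LTP2 made up 7.28% to 9.21% of the FPKM of LTP1 and LTP2 in WT, 8.02% to 10.7% in line 1, 8.47% to 14.7% in line 2 and 18.4% to 21.0% in trb123. LTP4 made up 6.27% to 25.3% of the FPKM of LTP3 and LTP4 in WT, 18.6% to 26.4% in line 1, 9.81% to 20.3% in line 2 and 62.0% to 68.4% in trb123. In both pairs the trb45 lines overlapped WT, and the trb123 libraries lay above all others.

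**Figure D4:**
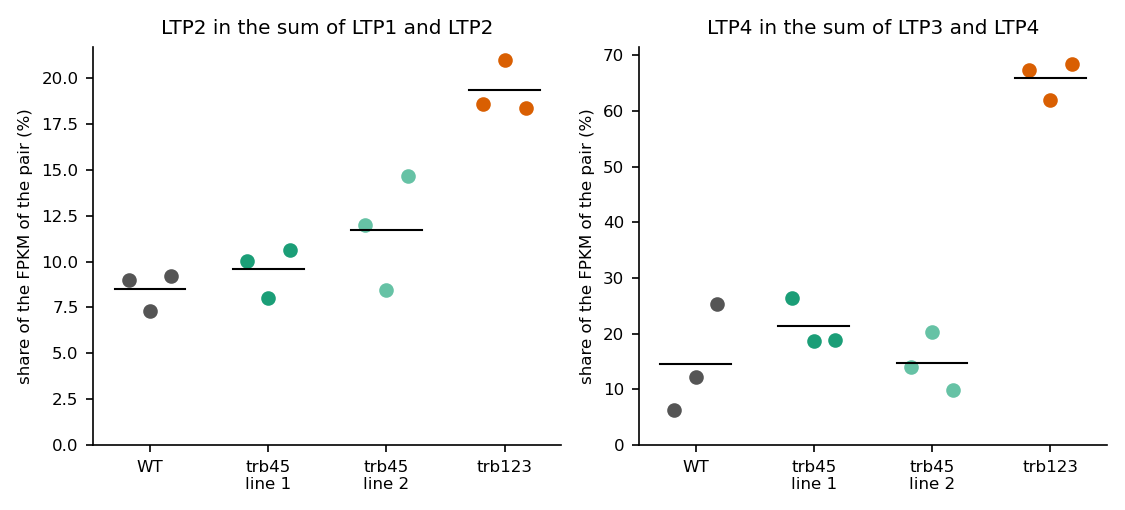
Share of LTP2 in the summed FPKM of LTP1 and LTP2 (left) and of LTP4 in that of LTP3 and LTP4 (right), in percent. Points are libraries and lines are group means. In trb123 LTP4 made up a mean of 65.9% of its pair, against 14.6% in WT.

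Genes beside the pairs were looked up after the members' values were known. The gene next to LTP3 on its other side, AT5G59330, had 0.80 to 0.98 FPKM in WT, 0.07 to 0.34 in line 1, 0.07 to 0.47 in line 2 and 0 to 0.28 in trb123, opposite in direction to LTP3 and too low to be tested. The next gene on that side is WOX2, a homeobox gene of the early embryo. It had 1.70 to 2.56 FPKM in WT, 2.04 to 2.56 in line 1, 2.33 to 2.46 in line 2 and 0.46 to 1.06 in trb123. UXS3, 3 genes away on the side of LTP4, had 32.4 to 35.9 and 39.3 to 42.4. After LTP1, AT2G38550 had 27.3 to 32.1 FPKM in WT, 16.8 to 20.9 in line 1, 13.7 to 20.3 in line 2 and 15.2 to 16.4 in trb123. Among the listed genes within 3 places of either pair, UXS3 and UBC7 were those with every trb123 library above WT. UBC7 had 11.6 to 12.1 FPKM in WT and 15.1 to 18.9 in trb123. AT5G59330, WOX2, AT2G38550, TFIIS and AT2G38570 had every trb123 library below WT. TFIIS had 8.32 to 9.09 FPKM in WT and 6.65 to 7.24 in trb123, and AT2G38570 1.41 to 1.62 and 0.75 to 0.9. Of all genes tested, 39.6% lay wholly above WT in trb123 and 30.6% wholly below. Every line 2 library of UXS3 and UBC7 also lay above WT, at 36.4 to 38.5 FPKM and 15.1 to 18.2, beside 25.4% of all genes. Line 1 overlapped WT for both, at 29.9 to 39.3 and 9.18 to 17.4 FPKM.

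The genes whose profile over the 12 libraries was most like that of LTP4 were, by Pearson r of log2(FPKM + 1) among 11818 genes averaging 5 FPKM or more, CAX3 (0.991), NRT1.7 (0.987), AT1G30630 (0.987), AT1G62790 (0.986) and AT1G59710 (0.985). CAX3, a vacuolar calcium/proton exchanger, had a mean of 4.32 FPKM in WT and 50.6 in trb123, and NRT1.7, a nitrate transporter of the phloem, 13.8 and 115. AT1G62790, annotated in the lipid transfer protein superfamily, had 34.7 and 154. The 12 points of each r share the contrast of trb123 with the other groups. For LTP3 r was 0.971, for LTP6 0.885, for LTP2 0.843 and for LTP7 -0.849.

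Other genes whose description holds the words lipid transfer protein moved in both directions. The search also matched within longer words, so glycolipid transfer proteins such as GLTP1, GLTP2 and GLTP3 are counted, and the counts mix families. LTP10 (AT5G01870), the tested GPI-anchored genes, DIR1, AT5G48490, EARLI1 and AT4G12490 are counted here and again in their own lists below. The reference held 126 beyond the 10 members, 62 were listed and 60 passed the filter. With the trb45 lines averaged, 7 were higher and 9 lower (26.7% of 60, beside 28.7% of all genes), and in trb123 27 were higher and 16 lower (71.7%, beside 59.4%). Their median difference was 0.09 in the lines and 0.26 in trb123, beside -0.02 and 0.07. The largest falls, in both kinds of mutant, were those of AT4G22505 and AT4G22485. AT4G22505 had the larger fall in the averaged lines, at -2.60 ± 0.42 in the averaged lines (adjusted p = 0.00101; from a WT mean of 798 FPKM to 125 in line 1 and 158 in line 2) and -4.54 ± 0.48 in trb123 (adjusted p = 5.82e-06). AT4G22485 had the larger fall in trb123; it differed by -2.46 ± 0.44 (adjusted p = 0.00187) in the lines and by -5.39 ± 0.51 (adjusted p = 2.07e-06). These 2 genes lie close together on chromosome 4 and the split of reads between them is uncertain. AT4G22490, AT4G22513, AT4G22517 and AT4G22520, which have nearby gene IDs, are also among those lower in trb123. The falls there are therefore not all from separate places.

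Of 5 numbered lipid transfer protein genes outside the members, LTP10 (AT5G01870) alone was listed, and it lay on the same side of WT as LTP6 in each mutant. It had 18.7 to 24.3 FPKM in WT, 5.88 to 7.47 in line 1, 9.11 to 17.0 in line 2 and 162 to 234 in trb123. No group overlapped another. The difference was -1.57 in line 1 (adjusted p = 0.000308), -0.79 in line 2 (adjusted p = 0.00952) and 3.18 ± 0.20 in trb123 (adjusted p = 5.84e-08). LTP10 also differed between the lines, at -0.78 (adjusted p = 0.0451).

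Among the GPI-anchored relatives, which sit on the outer face of the plasma membrane, 4 of 6 were tested. Limma called none of them in the averaged lines, where 1 had an unadjusted p under 0.05, and 1 in trb123, beside 28.7% and 59.4% of all genes. In line 1, LTPG2 was higher by 0.53 (adjusted p = 0.0362) and AT1G55260 by 0.42 (adjusted p = 0.0187). LTPG genes higher in line 1 than in line 2 numbered 3 of these 4, where 4.63% of all genes were called (2.07% higher).

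Of 5 genes of the DIR1 and AZI1 type, lipid transfer proteins of systemic immunity, AT5G48490 was called in the averaged lines, at 0.63 ± 0.15 (adjusted p = 0.00739), with 0.50 in line 1 (adjusted p = 0.0531) and 0.75 in line 2 (adjusted p = 0.00577). That is 20% of the list in the averaged lines, beside 28.7% of all genes, and all 5 passed in trb123, beside 59.4%. In trb123 it fell by 0.57 ± 0.17 (adjusted p = 0.0104) and the other 4 were higher. DIR1, which carries a signal of systemic acquired resistance, went from 79.6 to 94.5 FPKM in WT to 438 to 583 in trb123, a difference of 2.45 ± 0.17 (adjusted p = 1.98e-07). AZI1 rose by 1.40 ± 0.30 (adjusted p = 0.00139), AT4G12490 by 1.52 ± 0.41 (adjusted p = 0.00579) and EARLI1 by 0.89 ± 0.26 (adjusted p = 0.00897). These 4 were named after their values were seen, and AZI1, EARLI1 and AT4G12490 are close relatives in a cluster.

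The genes that make or control the cuticle did not follow one direction. Of 8 wax genes tested, 3 were higher and 1 lower in the averaged lines, and 3 were higher and 3 lower in trb123 (50% and 75% called, beside 28.7% and 59.4% of all genes). CER1, needed for wax alkanes, fell by 0.66 ± 0.11 in the lines (adjusted p = 0.0013), and KCS1, an enzyme of fatty acid elongation, rose by 0.54 ± 0.12 (adjusted p = 0.00735). The KCS1 average rests on line 1, at 0.87 (adjusted p = 0.00197); line 2 had 0.21 (adjusted p = 0.285), and the lines differed by 0.66 (adjusted p = 0.0394). In trb123, CER2, needed to elongate wax precursors, rose by 0.83 ± 0.10 (adjusted p = 1.16e-05) and CER4, which makes wax alcohols, by 0.70 ± 0.17 (adjusted p = 0.00287) from a mean of 0.36 FPKM.

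Of 13 cutin genes, 2 were higher and 3 lower in the lines, and 3 higher and 7 lower in trb123 (38.5% and 76.9% called, beside 28.7% and 59.4% of all genes). CYP86A2, a fatty acid hydroxylase, rose by 0.53 ± 0.10 in the lines (adjusted p = 0.00266), and PEL3, an acyltransferase, fell by 0.49 ± 0.11 (adjusted p = 0.00675). CYP86A2 had 0.80 in line 1 (adjusted p = 0.000904) and 0.26 in line 2 (adjusted p = 0.108), and the lines differed by 0.54 (adjusted p = 0.0394). In trb123, GPAT6, which joins cutin acids to glycerol, fell by 1.81 ± 0.10 (adjusted p = 2.58e-08), and BDG1, a hydrolase of the epidermal wall, rose by 0.88 ± 0.10 (adjusted p = 8.21e-06).

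Of 11 regulators of epidermis and cuticle, 2 were higher and 2 lower in the lines, and 3 higher and 6 lower in trb123 (36.4% and 81.8% called, beside 28.7% and 59.4% of all genes). DEWAX (AT5G61590), a repressor of wax genes, rose by 1.47 ± 0.17 in the lines (adjusted p = 0.000133), and MYB96, an activator of wax genes under drought, by 0.51 ± 0.18 (adjusted p = 0.0494). MYB96 had 0.84 in line 1 (adjusted p = 0.0155) and 0.17 in line 2 (adjusted p = 0.554), and the difference between the lines was 0.67 (adjusted p = 0.0669). In trb123, MYB106 fell by 1.60 ± 0.14 (adjusted p = 1.21e-06) and SHN2 by 1.31 ± 0.13 (adjusted p = 4.02e-06), both of them activators of cuticle genes; SHN2 had a WT mean of 1.56 FPKM.

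LTP3 and LTP4 are known as genes induced by abscisic acid, and 17 other genes of that response were examined. In the averaged lines limma called 9 lower and none higher, where 1 higher gene had an unadjusted p under 0.05 (52.9% called, beside 28.7% of all genes and 15.9% lower). In trb123 2 were higher, LEA4-5 by 1.13 and RD20 by 0.61, and 13 lower (88.2% called, beside 59.4% of all genes and 25.5% lower). LEA4-5 and RD20 were named after their values were seen. The 17 genes had a median difference of -0.56 in the lines and -0.75 in trb123, beside -0.02 and 0.07 over all genes. RAB18, a dehydrin, fell from 119 to 181 FPKM in WT to 44.3 to 125 in line 1, 34.7 to 37.9 in line 2 and 5.67 to 9.22 in trb123. That was -1.56 ± 0.25 in the averaged lines, with an adjusted p of 0.00101, and -4.25 ± 0.29 in trb123, with an adjusted p of 1.35e-07. KIN1, a cold and abscisic acid response gene, fell by 1.34 ± 0.16 in the lines (adjusted p = 0.000139), and ABI2, a phosphatase of the abscisic acid pathway, by 1.75 ± 0.21 in trb123 (adjusted p = 1.53e-05).

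**Figure D5:**
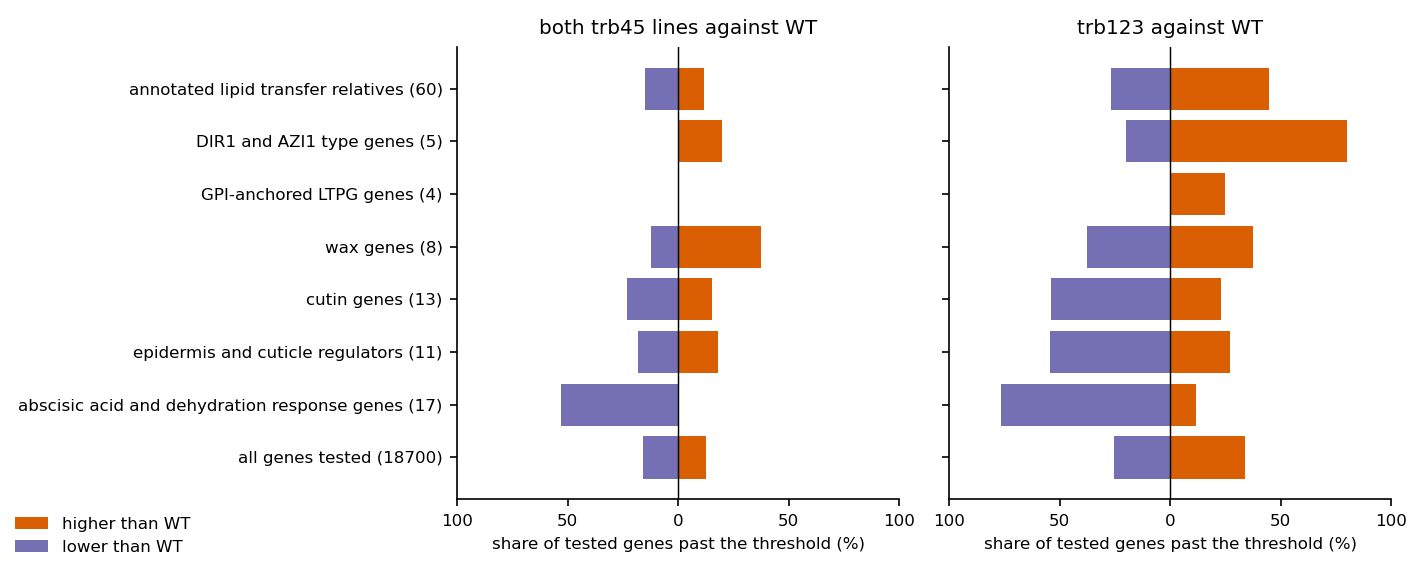
Share of tested genes past the threshold in each gene list, higher than WT to the right and lower to the left, in percent, for the averaged trb45 lines and for trb123; the number of tested genes is in parentheses. The annotated relatives share genes with the DIR1 and AZI1 list and the GPI-anchored list. The bars of the 17 abscisic acid and dehydration response genes lie almost wholly on the lower side, unlike those of all 18700 genes.

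In whole seedlings, fewer cells of a type and less RNA per cell cannot be told apart. The 4 epidermis markers, of which CER6 is also a wax gene and ATML1 and PDF2 are also among the regulators, summed to 1301 to 1436 FPKM in WT, 893 to 1365 in line 1, 796 to 1026 in line 2 and 768 to 988 in trb123. PDF1 held most of that sum. In the averaged lines limma called PDF1 alone, lower by 0.82 (adjusted p = 0.00986), which is 25% of the list beside 28.7% of all genes. CER6 was higher in line 1, by 0.53 (adjusted p = 0.0152). All 4 epidermis markers were lower in trb123 (100% called, beside 59.4% of all genes and 25.5% lower). The 9 root markers summed to 888 to 1031 FPKM in WT, 1200 to 1467 in line 1, 1147 to 1553 in line 2 and 716 to 725 in trb123. PYK10 carried that sum, with means of 865, 1303, 1319 and 635 FPKM. Of the 9 root markers, 1 was higher (PYK10) and 3 lower (SHR at -0.97, SCR at -0.56, EIR1 at -0.52) in the averaged lines, with a median of -0.18. That is 44.4% called, beside 28.7% of all genes (15.9% lower). In trb123 MYB36 and RHD6 were higher and PYK10 was lower (33.3% called, beside 59.4% of all genes). The 4 markers of photosynthetic shoot tissue summed to 42945 to 46609 FPKM in WT and to 42034 to 50022 in the mutants. RBCS1A held most of that sum. In the averaged lines RBCS1B (0.82) and CAB1 (0.31) were higher and none was lower (50% called, beside 28.7% of all genes). Line 2 had 3 higher (75% called, beside 30.5%) and line 1 had 1 (25%, beside 18.2%). In trb123 RBCS1B was higher by 0.51 and LHCA1 lower by 0.69 (50% called, beside 59.4%). No marker of these 3 lists was at 0 in a whole group. None of 5 tapetum and anther markers was listed for any genotype. The part of these differences in the levels of the lipid transfer protein genes was not tested.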

How the data were processed

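The deposited values are FPKM, computed by the authors and rounded to 2 decimals, in 4 tables side by side (WT, each trb45 line, trb123), per the file headers. STAR 2.7.1, DESeq2 and the build TAIR10 are named in the submitters' processing notes, with no role given; the libraries were stranded DNBSEQ libraries of polyA RNA, per the labels' protocols. Decimal commas in 61165 cells of line 1 were read as points. All columns of values were used, and the largest share of identical values between 2 libraries was 1.01%.

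Tables were joined by gene ID. Differences between groups were taken on log2(FPKM + 1), a scale on which low genes appear to change less than they did. Genes with at least 1 FPKM in at least 3 libraries entered a linear model in limma 3.58.1 (R 4.3.3; eBayes with trend) over all 12 libraries, and p-values were adjusted (Benjamini-Hochberg) over the 18700 genes of a comparison. The code was tested on simulated data. Depth was the value that put most low FPKM values on whole fragments (81.8% to 86.1% of 230 to 290 values per library within 0.25 of a whole number, score 8.98 to 10.7 against 1.04 to 2.14 with shuffled gene lengths); gene lengths came from the reference, so whole reads were not recovered and no count test was run. Approximate fragment numbers of LTP4 use that depth.

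Of the 20114 IDs, 20020 were found in TAIR10.1, which gave promoters, neighbours, descriptions and sequences. The members, gene lists, tests and alternatives were chosen with earlier results of these data known. Named were all members, called genes of the 3 nearest families of relatives in trb45, the 2 largest changes per other list and comparison, and the 5 genes most like LTP4. The alternatives were an adjusted p of 0.01, a 2-fold minimum, other filters, median-ratio or quantile scaling, 0.1 as pseudocount, eBayes settings, models of only the groups compared, a replicate block, a term for the 2 sets of libraries, and leaving out each library.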

Additional observations from a re-analysis of the deposited data

Results flagged for a closer look

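LTP6 was flagged because every trb45 library lay below every WT library while every trb123 library lay above: the ratio of the mean to WT was 0.6 in line 1 and 0.688 in line 2, against 3.10 in trb123. LTP7 was flagged because every library of line 1 lay above WT, at a ratio of 1.54, while every trb123 library lay below, at 0.416. The difference between the 2 kinds of mutant was not tested for these genes, since trb123 was in view when they were chosen. As values, the averaged trb45 lines differed from trb123 by -2.25 ± 0.16 on the log2 scale for LTP6 and by 1.55 ± 0.14 for LTP7.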

How the results depend on the processing

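The number of the 8 genes called in line 1 against WT was 5; it was 3 at an adjusted p under 0.01, 0 with a 2-fold minimum, and 3 to 6 when 1 library was left out. In line 2 the number was 4; it was 1 with a 2-fold minimum, 0 with a term for the split of the libraries, and 3 to 4 with 1 library left out. With the lines averaged it was 4, then 1 with a 2-fold minimum, 2 with the term for the split and 4 to 5 with 1 library left out. Between the lines it was 0, and LTP7 made it 1 with median-ratio scaling and with the replicate block, and 0 to 1 with 1 library left out. In the comparisons with WT, the adjusted p under 0.01 and the 2-fold minimum also lowered the number of all 18700 genes called. The term for the split did so too in line 2 and with the lines averaged. These falls are therefore not particular to the 8 genes. Without line 1 replicate 1 the LTP3 difference in line 1 turned from -0.03 to 0.50 (adjusted p = 0.0174, in a range of 0.0174 to 0.981), the one change of sign that was called; leaving out each library gave -0.36 to 0.50. The cause was not tested. Of 18 same-numbered pairs of libraries, 4 had a correlation over 0.1 (-0.06 to 0.32), each between line 2 and WT or line 1. Differently numbered pairs were not compared, so whether the replicate numbers pair the libraries was not settled. The replicate block moved no other count of called members by over 1.5 times. With the term for the split and both lines averaged, LTP2 (adjusted p = 0.0217) and LTP5 (0.0398) were called and LTP1 (0.0548) and LTP6 (0.0989) were not. As a description, the members' differences in trb123 kept their sign in all 16 alternatives. LTP4 ranged from 5.62 to 6.87, LTP3 from 2.15 to 3.24, LTP2 from 1.98 to 2.48 and LTP7 from -1.34 to -0.85. LTP8 was past the threshold in 3 of the 16. With 3 libraries per group, small differences and low levels such as those of LTP4 in WT limit what can be seen.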
